A study of Mus musculus with 40 samples.

Results

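The 4664 genomic regions described here gave reporter-positive fragments at every one of 5 stages of blood cell development in culture, out of 75060 regions in the screen (6.21%). The screen used HM-1 mouse embryonic stem cells of the 129/ola strain, which carry a non-functional Hprt gene that is repaired when the reporter integrates there. Open-chromatin fragments cut by the Tn5 transposase from cells of the 5 stages had been cloned in front of the minimal HSP68 promoter and a Venus-YFP gene, so that YFP fluorescence reads out the activity of 1 fragment per cell at 1 chosen locus. The cells, which all carried the reporter, were differentiated in serum and taken at the embryonic stem cell stage (ES), as FLK1+ cells like the hemangioblast (HB), as hemogenic endothelium with low RUNX1 (HE1) or with raised RUNX1 and CD41 (HE2), and as floating progenitors (HP). Each stage was sorted into Negative, Low, Medium and High YFP gates in 2 replicates, which gave 40 libraries. A group is thus a stage and a gate, with 1 library per replicate and no drug treatment named in its labels.

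Fragments of all 40 libraries that overlapped by 1 bp or more were joined into regions, and a region was positive at a stage when 1 or more fragments of its Low, Medium or High libraries, of either replicate, lay in it. The regions positive at ES, HB, HE1, HE2 and HP are called all-stage regions below. They were selected on these measured values, so their positivity at each stage is a description and carries no test. Per the methods, fragments were kept only under an open-chromatin (ATAC) peak of their stage. Positivity at a stage thus depends on open chromatin there as well as on reporter activity. A sort is 1 stage of 1 replicate, of which there were 10, and a fragment found in several positive gates of a sort was counted once. An enhancer is a stretch of DNA that raises transcription from a promoter at a distance through the factors bound to it. Elements that work in many cell types often carry sites for broadly expressed factors such as the SP and KLF zinc finger proteins or AP-1, whereas blood enhancers are known for sites of lineage factors such as GATA, RUNX and PU.1. CTCF is a ubiquitous zinc finger protein that organises chromatin loops.

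The 5 windows below show what such regions contain at the level of sequence. Each is the central 300 bp of an all-stage region, read from the GRCm38 reference (the build that mm10 names), named by the nearest curated RefSeq start site and chosen because 1 of the motifs compared below lies in it. Capitals mark AP-1 matches (TGAGTCA) in Hmox1, a CTCF match in Myo18a and on the opposite strand in Mt1, an SP match or GC box (GGGCGG) in Gm13363, and a GATA match (CTTATCT) in Dlk1. Only that motif is capitalised in each window.
Hmox1, chr8:75083804-75084103, plus strand: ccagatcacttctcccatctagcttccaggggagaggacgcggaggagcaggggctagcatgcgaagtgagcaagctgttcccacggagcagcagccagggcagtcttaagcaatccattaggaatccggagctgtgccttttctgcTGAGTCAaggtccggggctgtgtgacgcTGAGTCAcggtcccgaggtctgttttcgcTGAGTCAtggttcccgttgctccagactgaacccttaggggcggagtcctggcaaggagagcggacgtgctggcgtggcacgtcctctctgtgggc
Myo18a, chr11:77763153-77763452, plus strand: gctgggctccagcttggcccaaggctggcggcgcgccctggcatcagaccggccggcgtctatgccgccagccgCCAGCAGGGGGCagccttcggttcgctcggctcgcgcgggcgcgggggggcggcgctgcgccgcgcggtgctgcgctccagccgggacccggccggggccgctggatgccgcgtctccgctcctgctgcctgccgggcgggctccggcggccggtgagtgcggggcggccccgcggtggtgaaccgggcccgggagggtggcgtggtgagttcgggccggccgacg
Mt1, chr8:94186596-94186895, plus strand: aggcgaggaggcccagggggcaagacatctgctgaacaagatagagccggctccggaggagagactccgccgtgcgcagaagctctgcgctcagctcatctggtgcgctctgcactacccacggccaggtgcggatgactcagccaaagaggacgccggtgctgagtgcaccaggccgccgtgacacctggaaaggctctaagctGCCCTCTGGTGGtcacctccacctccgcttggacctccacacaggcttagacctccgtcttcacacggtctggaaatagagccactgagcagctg
Gm13363, chr2:19909661-19909960, plus strand: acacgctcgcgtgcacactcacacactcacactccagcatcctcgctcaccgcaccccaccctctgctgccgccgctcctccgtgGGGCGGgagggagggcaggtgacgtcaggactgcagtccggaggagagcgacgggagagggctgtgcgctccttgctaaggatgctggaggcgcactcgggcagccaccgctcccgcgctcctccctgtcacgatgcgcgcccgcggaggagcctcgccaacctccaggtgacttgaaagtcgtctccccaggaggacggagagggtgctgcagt
Dlk1, chr12:109437664-109437963, plus strand: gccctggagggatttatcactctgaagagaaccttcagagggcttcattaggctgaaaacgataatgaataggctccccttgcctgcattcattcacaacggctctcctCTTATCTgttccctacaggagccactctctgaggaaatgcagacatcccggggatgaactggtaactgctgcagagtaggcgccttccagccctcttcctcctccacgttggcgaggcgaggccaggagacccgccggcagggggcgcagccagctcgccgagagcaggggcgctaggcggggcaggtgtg
The Hmox1 window lay 9665 bp upstream of the start of Hmox1, the heme oxygenase gene, and held 3 AP-1 matches. The Myo18a window lay 13933 bp upstream of Myo18a, a myosin gene. The Mt1 window lay 7656 bp downstream of the start of Mt1, a metallothionein that binds metal ions, and was intergenic like the first 2. The Gm13363 window lay 82456 bp upstream of a predicted gene, and the Dlk1 window 15010 bp upstream of Dlk1, an imprinted Notch-related ligand gene.

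The 2 replicates differed greatly in depth, and the set of all-stage regions came mostly from replicate 1. The fragment lists gave no read counts, so depth is the number of unique fragments, which ran from 4869 to 51146 per library in replicate 1 and from 654 to 31915 in replicate 2. Fragments of replicate 1 alone sufficed for 4064 regions and those of replicate 2 alone for 373, of which 60 were positive in all 10 sorts and so count in both, and 287 regions entered only when both replicates were pooled. All-stage regions held 179902 of the 458486 listed fragments (39.2%). In replicate 1 they took 38.9% to 63.3% of the fragments of a library, and in replicate 2 8.95% to 32.3%. Per the methods, the plasmid libraries of the stages were mixed before transfection, so stages of a replicate share their pool of constructs.

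Identical fragments carried much of the set in replicate 2. Of 115623 different positive fragments in all-stage regions, 440 were found at all 5 stages, and of these 323 occurred in lists of replicate 2 only, 49 in lists of replicate 1 only and 68 in both. Of the 373 regions that replicate 2 alone selected, 342 held such a fragment. When fragments with identical ends at 2 or more stages of the same replicate were removed, replicate 2 alone selected 0 regions and replicate 1 alone 3079. In replicate 2, 23.2% of the different positive fragments in all-stage regions were seen at 2 or more stages, against 12.1% in replicate 1. The lists do not tell separate insertions of 1 fragment apart.

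Most all-stage regions passed the rule with few fragments at their weakest stage. There were 2116 with 1 positive fragment there, 987 with 2, 1561 with 3 or more and 179 with 10 or more. A lone fragment was found in 1231 all-stage regions at ES, 937 at HP, 846 at HB, 671 at HE2 and 304 at HE1, and the median per region was 3 at ES and HP, 4 at HB and HE2 and 7 at HE1. Just outside the rule, 4377 regions were positive at 4 stages, with a median of 11 positive fragments against 21 in all-stage regions. ES was the missing stage in 2242 of them, HP in 915, HE2 in 471, HE1 in 150 and HB in the others. The Runx1 region described below was just inside, with 1 fragment at ES.

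The chance that a region was in the set followed the number of fragments recovered from it. Of regions with 5 to 9 positive fragments, 6.82% were all-stage regions, of those with 20 to 29, 56.2% were, and of those with 100 or more, 96.7% were. All-stage regions were also wider, with a median of 684 bp (quartiles 527 and 839) against 542 bp for regions positive at 4 stages and 225 bp at 1 stage. They held negative fragments as a rule, with a median of 6 per region, and 119 of them (2.55%) had none. Negative fragments were present at all 5 stages in 900 all-stage regions.

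**Figure D1:**
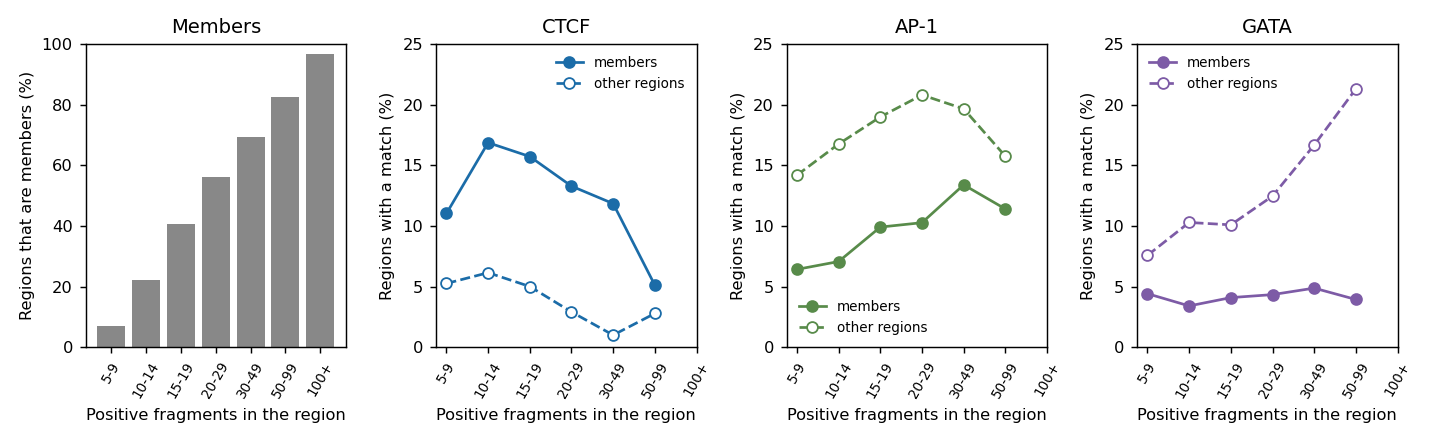
All-stage regions (members) by number of positive fragments. The left panel gives the percent of regions in each class of positive fragments that are members, and the other panels the percent of members (filled) and of other regions with 5 or more positive fragments (open) with a CTCF, AP-1 or GATA match in the central 300 bp, where both classes hold enough regions. Membership rose from 6.82% to 96.7%, and AP-1 and GATA matches were fewer in members than in other regions of each class shown.

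In the genome, all-stage regions lay closer to curated start sites than regions positive at fewer stages, but were not less often intergenic. Their median distance to the nearest curated start site was 15310 bp (quartiles 6754 and 35590), against 20046 bp for regions at 4 stages and 26868 bp at 1 stage. By position of the centre, 2358 (50.6%) were intergenic, 1890 (40.5%) intronic and 416 (8.92%) exonic. Among regions at 1 stage 48.9% were intergenic, 46.2% intronic and 4.88% exonic. Chromosome 11 held 595 all-stage regions, 8.59% of its regions, and the X chromosome 49, 3.89% of its regions. These are counts with no replicate error, and regions of 1 locus are not independent. Per the methods, fragments within 1500 bp of a start site were classed apart from distal ones, which bears on all these distances and positions.

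All-stage regions were richer in CpG and in GC boxes than regions positive at fewer stages. Their median GC content was 54.7% (quartiles 51.0 and 59.0), against 52.0% for regions at 4 stages and 48.3% at 1 stage. The CpG ratio, observed over expected from base content, had medians of 0.312, 0.231 and 0.185 in the same order. A GC box was found in 25.2% of all-stage regions (1173 of 4664, Wilson 95% interval 23.9 to 26.4), in 14.2% of regions at 4 stages, in 7.40% at 1 stage and in 9.29% of all regions. Within each replicate the share was also higher at 5 stages than at 4. Regions selected by replicate 1 alone had 26.6% against 16.2%, and regions selected by replicate 2 alone 16.9% against 10.5%. In replicate 2 the share was 7.71% at 1 stage and did not rise from 2 to 4 stages, with 12.8% at 2 stages, 11.1% at 3 and 10.5% at 4. Among the 60 regions positive in all 10 sorts, 32 held a GC box (53.3%, 40.9 to 65.4). These 60 belong to both selections, and their 32 are part of the 63 with a GC box among the 373 of replicate 2. The other regions of the 373 held a GC box no more often than regions at 4 stages of replicate 2. The higher share in replicate 2 thus rested on regions that replicate 1 also selected and is not a separate result. The difference rose with the number of fragments, since regions with 5 to 9 positive fragments had 9.22% in the set and 10.2% outside it, and regions with 30 to 49 had 32.4% and 15.7%.

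GATA matches (AGATAAG) went the other way in replicate 1. They were found in 4.16% of all-stage regions (194, 3.62 to 4.77), against 8.98% of regions at 4 stages, 5.18% at 1 stage and 5.85% of all regions. By the missing stage, 13.5% of the 4-stage regions that lacked ES held a GATA match, and 4.34%, 3.33%, 2.97% and 4.92% of those that lacked HB, HE1, HE2 and HP. In every class of positive fragments from 5 to 99, GATA matches were fewer in the set than outside it, for example 4.33% against 12.5% at 20 to 29 fragments. In replicate 2, 5.63% (3.71 to 8.45) of the regions it selected alone held a match, against 3.86% at 4 stages, so the order was not the same there. Nor was it the same when HB, HE1, HE2 or HP of replicate 1 was left out, as given below.

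AP-1 matches (TGACTCA or TGAGTCA), the site of the Fos and Jun factors, were most frequent in regions positive at 2 or 3 stages when the replicates were pooled and in replicate 1, but not in replicate 2. They were found in 9.88% of all-stage regions, 12.2% of regions at 4 stages, 14.8% at 2 stages, 8.20% at 1 stage and 9.77% of all regions. In each class of positive fragments from 5 to 99 the share was lower in the set than outside it, for example 10.3% against 20.8% at 20 to 29. Regions that lacked HB alone had the highest share, 22.7%, and those that lacked HE2 alone the lowest, 6.37%. In replicate 2 the shares were 7.15%, 7.36%, 6.56%, 7.62% and 7.51% at 1 to 5 stages.

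CTCF matches rose with the number of positive stages, but this depended on the replicate, on single sorts of replicate 1 (given below) and on how fragments were joined. They were found in 12.6% of all-stage regions (589, 11.7 to 13.6), 8.29% of regions at 4 stages, 1.17% at 1 stage and 2.73% of all regions. Within replicate 1 the share went from 2.27% at 1 stage to 10.4% at 4 and 13.95% at 5, and within replicate 2 it was 1.51%, 1.61% and 1.88%. When an overlap of 100 bp was needed to join fragments, the shares were 7.0% in the set, 5.74% at 4 stages and 6.36% at 1 stage. GC boxes kept their order under that joining, with 34.5%, 23.7% and 14.8%. GATA matches stayed lowest in the set, with 3.17%, 6.33% and 7.26%, but regions at 1 stage then exceeded those at 4 stages. The 589 all-stage regions with a CTCF match had a median of 19 positive fragments and lay 14932 bp from a start site, against 22 fragments and 15416 bp without a match. Of them 76 also held a GC box, 47 an AP-1 match and 23 a GATA match, and 2529 all-stage regions held none of the 4 motifs. A match is a run of letters in the reference and not a measured binding site.

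**Figure D2:**
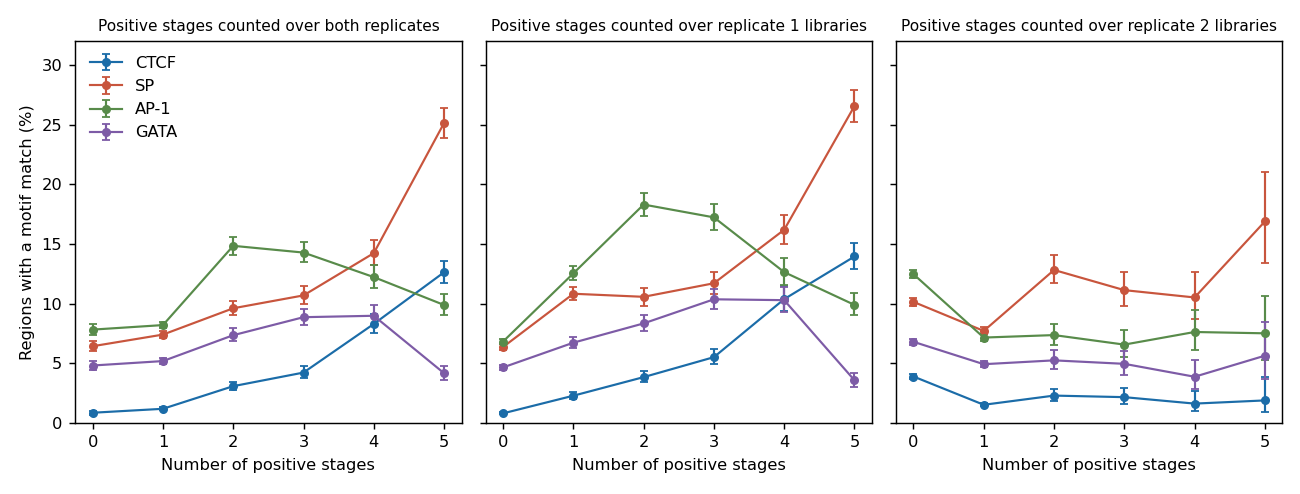
Motif matches by the number of positive stages. Each panel gives the percent of regions with a match in the central 300 bp against the number of stages at which the region was positive, with stages counted over both replicates, over replicate 1 and over replicate 2, and bars are Wilson 95% intervals for counting error. GC boxes (SP) were highest at 5 stages in each panel, CTCF rose to 13.95% in replicate 1 and stayed at 1.88% in replicate 2.

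The all-stage regions seen in most libraries were of high GC content, from 57.3% to 80.7% in the central window of the 12 regions chosen by this count. 2 regions, nearest to A430078I02Rik and Gm9222, were in 26 of the 30 positive libraries, the most of any. The first lay 8397 bp downstream of the start of A430078I02Rik on chromosome 6 (86471949 to 86472918, exonic), with 136 positive and 45 negative fragments. In replicate 1 it had 18, 26, 38, 23 and 16 positive fragments at ES, HB, HE1, HE2 and HP, and in replicate 2 it had 6, 2, 3, 2 and 2. The region 17690 bp downstream of the start of Tfap4, a helix-loop-helix factor gene, had 20, 24, 38, 25 and 21 fragments in replicate 1 and 1, 2, 2, 1 and 1 in replicate 2. All 10 sorts were positive in both, with HE1 of replicate 1 the highest.

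The Hmox1 region shown above (chromosome 8, 75083568 to 75084340) was in 25 libraries. It had 7, 14, 40, 11 and 16 positive fragments in replicate 1, and 2, 2, 1, 1 and 1 in replicate 2, with 26 negative fragments in all. The region 2109 bp downstream of the start of Junb, the AP-1 subunit gene, had 15, 10, 38, 23 and 15 and then 3, 2, 1, 1 and 1. The Myo18a region had 5, 19, 45, 18 and 9 in replicate 1 and 0, 3, 6, 3 and 4 in replicate 2, so ES of replicate 2 lacked it. HE1 of replicate 1, the sort with most fragments, was the highest in each of these 3 regions.

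The others of the 12 regions in most libraries were nearest to Gm9222, 1700066B19Rik, 1700055C04Rik, Cbx7 (a Polycomb subunit gene), Ap5z1 (an adaptor protein subunit gene), B4galnt1 (a ganglioside synthesis gene) and Gm41414. They had 44 to 118 positive fragments and 11 to 34 negative ones in 25 or 26 libraries. The Gm9222 and Gm41414 regions lay 34 bp and 38 bp from a start site in the annotation used here. Within 1500 bp of one lay 100 all-stage regions (2.14%), beside 411 of all regions (0.548%). These low shares follow the authors' separation of promoter fragments and are no trait of the set.

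At 10 loci picked by name, the all-stage region with most positive fragments is given where there was one, and most of its fragments came from replicate 1. In an intronic region 3655 bp downstream of a start of Runx1, the master regulator of the endothelial to blood transition (chromosome 16, 92822070 to 92822770), replicate 1 had 0, 10, 7, 11 and 5 positive fragments, and replicate 2 had 1 at ES and 0 elsewhere. This region therefore was in the set through 1 ES fragment of replicate 2. At Spi1, which encodes PU.1, the intronic region had 4, 4, 4, 5 and 2 fragments in replicate 1 and 0 in replicate 2, and the region with most positive fragments at that locus, 28, was not in the set. The Dlk1 region had 3, 3, 8, 5 and 6 fragments in replicate 1 and 0 in replicate 2.

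The intronic Notch1 region, at the gene of the Notch receptor, had 6, 7, 12, 12 and 1 fragments in replicate 1 and 2, 1, 3, 0 and 0 in replicate 2, and another region of that locus, with 48 positive fragments, was not in the set. The Hspg2 region, in the gene of the heparan sulfate proteoglycan perlecan, had 4, 7, 10, 12 and 6 and then 0, 0, 1, 0 and 0. The region 8372 bp upstream of Sparc, a matrix protein gene, had 10, 9, 23, 16 and 10 in replicate 1 and 0 in replicate 2. The region at Pxn, the paxillin gene, was nearest to Sirt4 and had 117 positive fragments, in all 10 sorts. At Galnt1 a region with 18 positive fragments was in the set, and no region within 25000 bp of Sox17 or Elf1 was, with at most 19 and 8 positive fragments there.

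**Figure D3:**
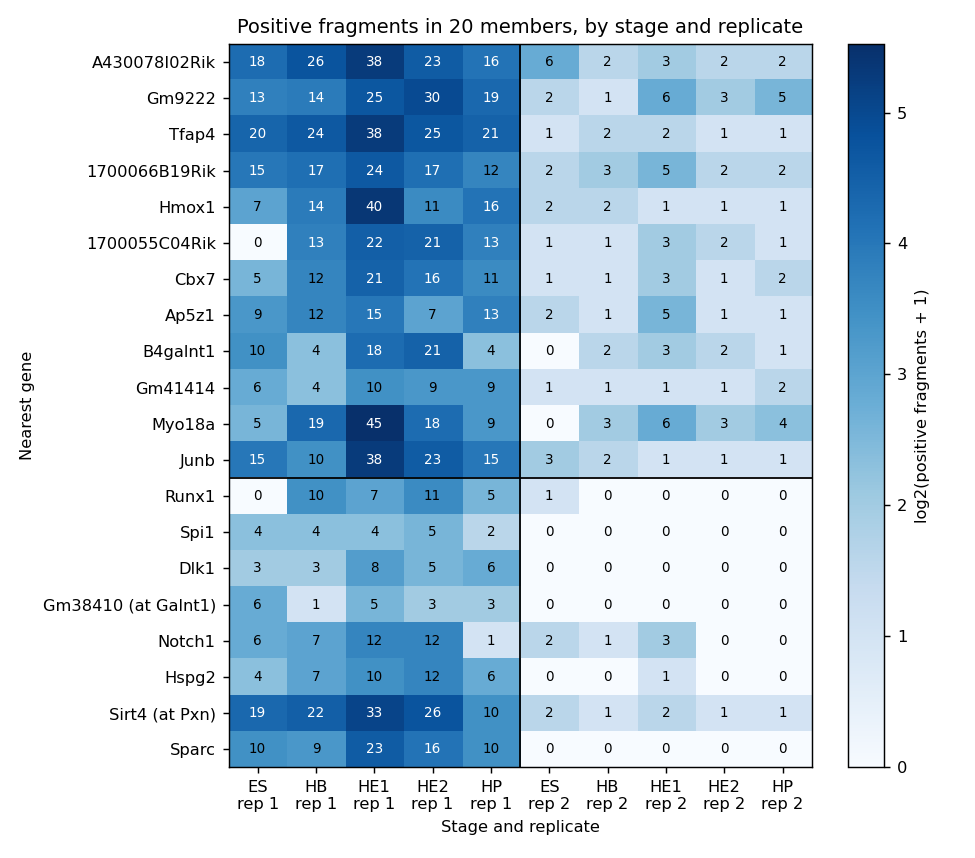
Positive fragments in 20 all-stage regions by stage and replicate. Rows are the 12 regions found in most libraries (above the line) and the regions at 8 named loci (below it), columns are the 10 sorts, numbers are positive fragments and the colour is log2 of that number plus 1. Replicate 1 gave 40 fragments at HE1 for Hmox1 and replicate 2 gave 1, and 4 of the 8 locus regions had 0 in all sorts of replicate 2.

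Near genes of 8 lists all-stage regions made up 7.86% to 11.7% of regions, and near genes of a neuronal list 2.33%. Beside the 6.21% over all regions, 18 of 229 regions nearest to blood and endothelial transcription factor genes were all-stage regions (7.86%), 11 of 98 at pluripotency genes (11.2%), 15 of 136 at endothelial surface genes (11.03%) and 4 of 172 at neuronal synapse genes (2.33%). Notch pathway genes had the highest share of the 9 lists, 13 of 111 (11.7%). The other lists had 13 of 135 for AP-1 and Hippo pathway genes (9.63%), 14 of 167 for BMP and TGF-beta genes (8.38%), 17 of 179 for focal adhesion and cytoskeleton genes (9.5%) and 4 of 49 for chromatin architecture and housekeeping genes (8.16%). Regions near 1 gene share a locus, and these shares had no test.

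Among them the region 18459 bp upstream of Fos, the AP-1 partner of Jun, had 199 positive fragments, of which 26, 40, 68, 35 and 28 were from replicate 1 at ES, HB, HE1, HE2 and HP and 2 from HP of replicate 2. A second region 12150 bp downstream of the Fos start had 126. At blood genes, the region 74397 bp upstream of Sox17 had 73 positive fragments, that 4054 bp upstream of Gata2, a factor of blood stem cells, 71, and that 33593 bp upstream of Gfi1, a repressor needed for the endothelial to blood transition, 65. The Gata2 region had 7, 14, 21, 17 and 10 fragments in replicate 1. The Gfi1 region had 0 at ES in replicate 1 and 1 in replicate 2.

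At pluripotency genes, 2 regions of Klf4 had 78 and 60 positive fragments, and the region at Esrrb, an orphan nuclear receptor gene, had 25, with 0 at ES in replicate 1 and 1 in replicate 2. At endothelial genes, regions near Nrp1 and Nrp2, which encode VEGF co-receptors, had 85 and 53, and that at Nos3, the endothelial nitric oxide synthase gene, 56. Maml3 and Maml2, co-activators of Notch, had 103 and 59. Id2, Id3 and Tgfb1 of the BMP and TGF-beta list had 57, 50 and 57. Bcar1, an adaptor of focal adhesions, had 103 and 41 in 2 regions. Yy1 had 108, Actb 71 and Sp1 44, and at neuronal genes Dlg4 had 93 and 29 in 2 regions and Snap25 29.

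The first tested question was whether fragments from all-stage regions were more frequent among positive than among negative fragments, with the regions selected in the other replicate so that the choice used none of the values tested. In replicate 1, the 373 regions selected in replicate 2 took 1.65% to 2.36% of positive fragments and 1.61% to 2.40% of negative fragments over the 5 sorts. In replicate 2, the 4064 regions selected in replicate 1 took 6.17% to 8.38% and 7.43% to 8.14%. Positive and negative gates overlapped within each replicate, and the share was higher among positive fragments in 4 of 10 sorts. The mean difference was −0.287 percentage points (SD of the differences 0.618, n = 10 sorts; two-sided exact permutation test within stages, p = 0.756). That test exchanged values across replicates, whose levels differed and which were scored on different sets of regions. With labels exchanged within sorts, the exact permutation p was 0.170. Of the regions selected in replicate 1, 26.2% were positive at HE1 in replicate 2, and 12.7%, 16.8%, 6.18% and 7.65% at ES, HB, HE2 and HP, while 4.18%, 4.08%, 4.97%, 4.58% and 20.4% held negative fragments of replicate 2 at HE1, ES, HB, HE2 and HP. In replicate 2 the positive HE1 lists and the negative HP list were the longest of their kind, with 34809 and 14951 fragments. A share of 1.48% was positive at all 5 stages in replicate 2, and 59.4% at none.

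The share of all-stage regions was also set side by side in the brightest and dimmest positive gates, as a description, since the regions were selected with these same fragments. In replicate 1 the High libraries had 62.8%, 53.0%, 44.6%, 41.8% and 52.1% of their fragments in all-stage regions at ES, HB, HE1, HE2 and HP, and the Low libraries had 63.3%, 55.5%, 39.7%, 39.1% and 45.9%. In replicate 2 the High libraries had 14.3%, 11.95%, 11.4%, 21.1% and 15.4%, and the Low libraries 24.4%, 16.1%, 8.95%, 24.2% and 26.3%. High exceeded Low in 3 of 5 sorts of replicate 1 and in 1 of 5 of replicate 2. The mean difference was −1.52 percentage points (SD 5.84, n = 10 sorts), with 2.15 in replicate 1 and −5.18 in replicate 2. With regions selected in the other replicate, which used none of the values compared, it was −0.789 percentage points (p = 0.592 by the two-sided exact permutation test within stages, which exchanged values across replicates).

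**Figure D4:**
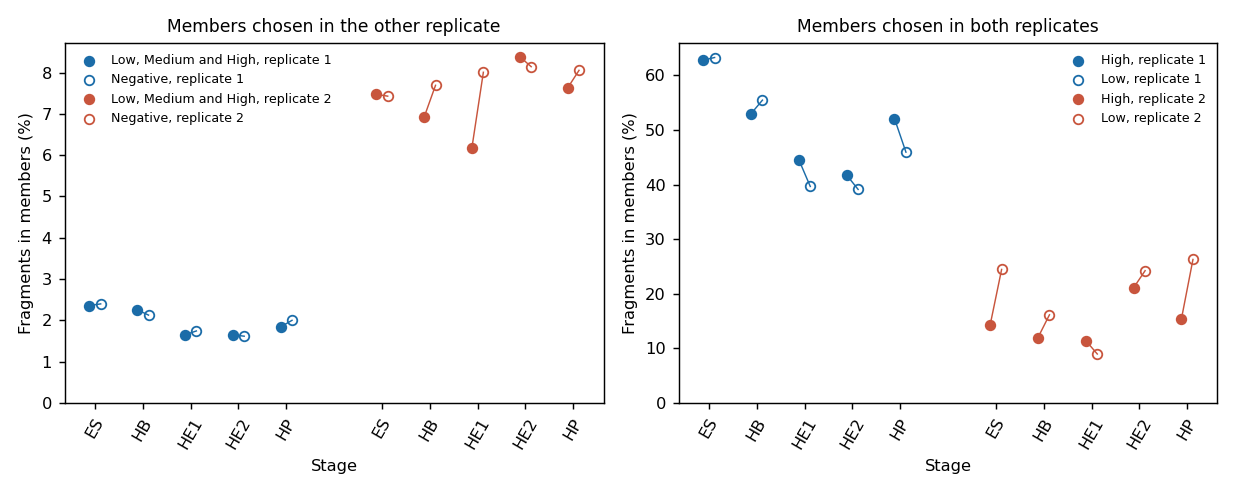
Percent of fragments in all-stage regions by sort. The left panel compares positive (filled) with negative (open) fragments for regions selected in the other replicate, the right panel High (filled) with Low (open) libraries for the regions selected with the replicates pooled, and each pair of points is 1 stage of 1 replicate. On the left the widest gap was −1.83 percentage points, at HE1 of replicate 2, and on the right High lay above Low in 4 of 10 sorts.

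Within all-stage regions, the differences in length and GC content between positive and negative fragments were smaller than the spread between sorts. The rule used the presence of these positive fragments, but not their length or sequence. Median fragment length was 201 bp (SD 46.8, n = 10 sorts) for positive and 198 bp (SD 11.9) for negative fragments, a difference of 3.15 bp (exact permutation p = 0.886). In replicate 1 positive fragments were the shorter in all 5 sorts, by 1 to 50.5 bp (p = 0.0625, the smallest that 5 sorts allow in an exact permutation test), and in replicate 2 they were the longer in 4 of 5, by up to 100 bp at HE1. Mean GC content was 57.2% for positive and 57.03% for negative fragments (difference 0.121, SD 1.02, exact permutation p = 0.895).

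Of 14 motifs compared between positive and negative fragments of all-stage regions, 0 passed an adjusted p of 0.05 in the exact permutation test, and 0 had an unadjusted p below 0.05. The 3 lowest p were those of RUNX, EBOX and CTCF. The RUNX motif (TGTGGTC or TGTGGTT) was found in 7.10% of positive and 7.65% of negative fragments (SD 1.01 and 1.14, n = 10 sorts, exact p = 0.316, adjusted 0.914). The EBOX motif (CAGCTG) was found in 15.9% and 14.8% (SD 1.84 and 2.30, exact permutation p = 0.336, adjusted 0.914), and CTCF in 5.84% and 5.07% (SD 1.64 and 1.72, exact p = 0.349, adjusted 0.914). CTCF was higher among positive fragments in 9 of 10 sorts, in all 5 of replicate 1 and 4 of 5 of replicate 2. With labels exchanged within sorts, so that each positive set was compared with the negative gate of its own sort, the exact p was 0.00586 for CTCF and 0.0430 for RUNX, and 0.0820 and 0.301 after adjustment over the 14 motifs.

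In the test of High against Low fragments per region, 0 of the 1437 all-stage regions with enough fragments passed an adjusted p of 0.05, beside 1 of 1844 regions in all (0.0542%). Regions with 20 or more High and Low fragments were compared by Cochran-Mantel-Haenszel, stratified by the 10 sorts and adjusted by Benjamini-Hochberg over all 1844. It compares fragments and does not use the spread between replicates. With the 2 replicates of a stage pooled into 1 stratum, 67 of the 1844 regions were called. Of the 1437 all-stage regions 27 were, a smaller share. Of the all-stage regions, 69 had an unadjusted p below 0.05, 35 towards High and 34 towards Low, beside 90 of all 1844 regions, a like share. The limma fit on log2 values called 0, with 70 of the all-stage regions and 75 of all regions below 0.05 unadjusted. The region called was not an all-stage region. It was nearest to Mfn1 on chromosome 3 (32572564 to 32572817) and had 17 High fragments against 7.77 expected.

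The all-stage regions with the lowest p towards High were nearest to Gm13363, 1700122O11Rik, Chmp4b, Mtf1 and Mt1. The Gm13363 region, shown above, had 23 High and 1 Low fragments, with 15.4 High expected from the totals of its sorts (adjusted p = 0.713, Cochran-Mantel-Haenszel). Its positive fragments numbered 2, 5, 14, 5 and 9 over the stages of replicate 1, and 1 at HE1 of replicate 2. The region at Mtf1, which encodes the metal-responsive factor of metallothionein genes, had 22 High and 2 Low, and the Mt1 region 24 and 4. The 1700122O11Rik and Chmp4b regions had 19 and 1, and 22 and 3. Adjusted p was 0.713 to 0.734 in these 5 regions.

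Towards Low, the lowest p fell at B230216N24Rik, Aldh4a1, Bcorl1, Klf4 and St3gal1. The region at B230216N24Rik had 12 High and 27 Low fragments, with 21.8 High expected (adjusted p = 0.715). The region 23562 bp upstream of Aldh4a1, a mitochondrial dehydrogenase gene, had 33 and 44, that in Bcorl1, a corepressor gene, 13 and 23, and that in St3gal1, a sialyltransferase gene, 7 and 16. The region 118776 bp upstream of Klf4, a pluripotency factor gene, had 17 and 27 with 26.0 High expected. In these 5 regions observed High fragments were 0.531 to 0.715 times those expected, and none passed the test.

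**Figure D5:**
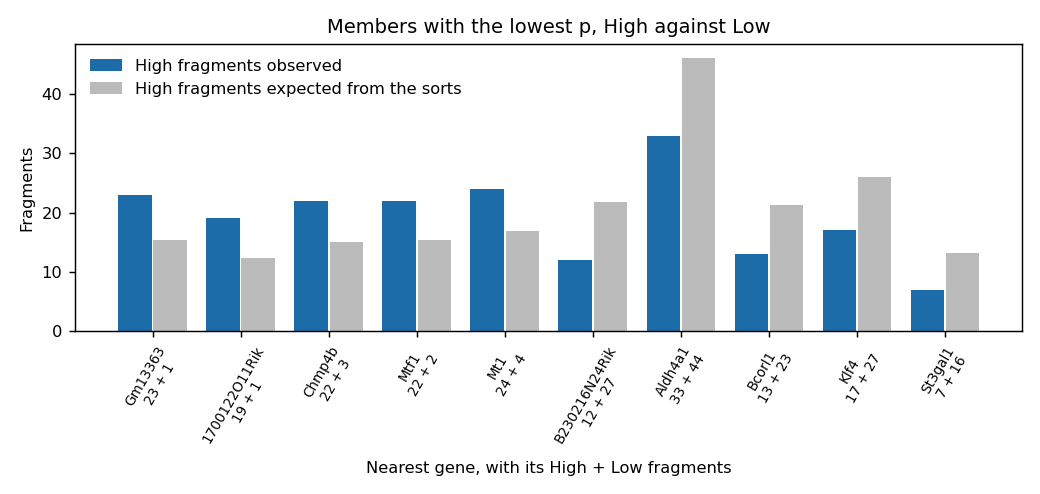
High fragments in the 10 all-stage regions with the lowest p. Blue bars are observed High fragments and grey bars those expected from the High and Low totals of the 10 sorts, and labels give High plus Low fragments. Gm13363 had 23 against 15.4 expected and Aldh4a1 33 against 46.2, and 0 of the 10 passed an adjusted p of 0.05.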

How the data were processed

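Per the methods, the authors tagmented open chromatin of each stage, cloned the fragments, integrated them at Hprt, sorted differentiated cells by YFP and amplified the inserts by PCR. Reads were processed with Trim Galore, Bowtie2, SAMtools, bedtools and HOMER on mm10, per the submitters' processing notes. The methods describe removal of fragments also seen in a background library. Fragments were then kept where DNaseI data and an ATAC peak of the same stage showed open chromatin. The authors deposited, per library, the coordinates of unique fragments with no read counts or molecular identifiers, so intervals (Wilson, 95%) cover counting error only.

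Fragments were joined into regions, placed by their centre and annotated with curated RefSeq transcripts of GRCm38. Motifs were searched on both strands of the central 300 bp, and of whole fragments for the gates. The AP-1 motif was TGACTCA or else TGAGTCA, and the related CRE motif was TGACGTCA. The RUNX motif was TGTGGTC or else TGTGGTT, the PU.1 motif was GAGGAAGT, the general ETS motif was CCGGAAGT, and the GATA motif was AGATAAG. The TEAD motif was GGAATGC or else GGAATGT, the SOX motif was ACAAAGG or else ACAATGG, and the OCT motif was ATGCAAAT. The EBOX motif was CAGCTG, the CEBP motif was TTGCGCAA, the RBPJ motif was TGGGAA and the SP motif was GGGCGG. CTCF was searched by its consensus. No letters of 2 motifs were masked, so matches of different motifs may overlap.

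The titles gave the stage, gate and replicate of each library. Labels were exchanged within stages (exact, two-sided), and regions were tested with Cochran-Mantel-Haenszel. Scripts used Python 3.11.15, scipy 1.17.1, samtools 1.23.1 and limma 3.58.1, and both tests were tested on simulated data. For the permutation test these data held no difference in level between replicates. For Cochran-Mantel-Haenszel they held no spread between replicates beyond counting error, so they do not cover either feature. Replicate numbers paired the gates, read over the 3258 all-stage regions left when fragments shared between stages were removed. Same-numbered gates deviated together there (r 0.381 to 0.706 for positive and negative, 0.282 to 0.445 for High and Low), every pair over 0.1. Replicates are the 2 numbers of the labels, and p-values measure only the spread between those samples.

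Named regions were the 12 in most positive libraries, the all-stage region with most positive fragments at each of 10 loci that held one (gene and 25000 bp around it), in each direction of High against Low the 5 of lowest adjusted p, and 3 with most positive fragments in each of 9 gene lists. One region that this rule names is not reported here. The regions, loci, motifs and lists were chosen with earlier results of these data known.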

Additional observations from a re-analysis of the deposited data

Results flagged for a closer look

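Groups of this screen hold 2 libraries, too few to set 1 library against the others of its group. In 4 cases every sort of 1 stage moved one way and every sort of another stage the opposite way, with 2 sorts a stage and with no test of the difference. The share of fragments in regions selected in the other replicate, positive minus negative, was higher at HE2 than at HE1 by 1.10 percentage points (0.140 against −0.962) and than at HP by 0.435 (0.140 against −0.295). The share in all-stage regions, which were selected with these fragments, High minus Low, was higher at HE1 than at ES by 9.01 percentage points (3.68 against −5.33) and than at HB by 7.02 (3.68 against −3.34).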

How the results depend on the processing

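The number of all-stage regions was 4664. It was 60 with both replicates required at every stage, 2548 with 2 or more positive fragments per stage, and 373 to 4352 when a replicate or sort was left out, the lowest value being that without replicate 1. Leaving out ES, HB, HE1, HE2 or HP of replicate 1 gave 1033, 1150, 1522, 630 and 696, and leaving out HE1 Medium of replicate 1, an alternative chosen after seeing the data, gave 4566. With every stage thinned to 36737 positive fragments it was 3128. The share with a CTCF match (12.6%) was 1.88% to 13.95% when a replicate or sort was left out, 7.0% with an overlap of 100 bp to join fragments and 6.67% with both replicates required. For GC boxes (25.2%) the range was 16.9% to 28.7%, and the values were 29.2% without fragments shared between stages, 34.5% with the 100 bp overlap, 31.9% with 2 or more fragments, 28.2% with Medium and High only and 53.3% with both replicates. For AP-1 (9.88%) the range was 7.51% to 10.2%, with 8.15% at the 100 bp overlap and 6.67% with both replicates, and for GATA (4.16%) 3.57% to 5.63%, with 3.17% and 1.67%. Without HB, HE1, HE2 or HP of replicate 1, GATA was 4.96%, 5.06%, 4.60% and 4.89% in the set. Regions at 4 stages then had 4.47%, 4.53%, 4.15% and 4.27%. Without ES of replicate 1 the set stayed lower, with 5.61% against 7.10%.

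The replicate block, with labels exchanged within sorts, changed no call. The exact permutation p was 0.170 for the held-out share (difference −0.287), 0.857 for length (3.15 bp) and 0.643 for GC content (0.121). High minus Low (−1.52) is left as a description, since its regions were selected with the same fragments. Without the replicate block, with the replicates of a stage pooled, the test per region called 67 of 1844 regions and 27 of the 1437 all-stage regions tested, against 1 and 0.

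The held-out share kept its direction in every alternative run and passed the threshold in none. High minus Low changed sign with Medium and High only (1.47) and ran from −3.94 to 2.40 with a replicate or sort left out. Length changed sign without fragments shared between stages (−5.05 bp), with Medium and High only (−11.15) and without ES Medium and HE1 Low of replicate 2 (−10.65), also chosen after seeing the data, and ran from −18.2 to 17.95 with a replicate or sort left out. GC content changed sign with near-identical fragments collapsed (−0.00212), without shared fragments (−0.554), with Medium and High only (−0.237) and without those 2 libraries (−0.0829). It ran from −0.381 to 0.587 with a replicate or sort left out, and without HE2 of replicate 2 it had its lowest p (exact permutation, 0.0455). The motif count stayed 0 in every alternative run. RUNX ran from −1.24 to 0.129 percentage points with a sort left out and was 0.641 without shared fragments. Regions called in High against Low numbered 0 with near-identical fragments collapsed, without shared fragments, without those 2 libraries and by limma, 5 with 10 or more fragments, and 0 to 2 with a replicate or sort left out, 0 without HE1 of replicate 2 and 2 without HE2 of replicate 1. Without replicate 1 observed over expected High fragments was 0 for Gm13363 and 1.32 for Aldh4a1, and their ranges were 0 to 1.62 and 0.684 to 1.32. The causes of these changes were not tested.

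Of the regions selected in replicate 1, 59.4% had no positive fragment in replicate 2, and of those selected in replicate 2, 73.2% had none in replicate 1. Stages of a replicate share their constructs, so positivity at 5 stages is not 5 independent observations.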
